A study of Rattus norvegicus with 14 samples.

Results

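Testes taken from rat embryos at embryonic day 13 (E13) and kept for 3 days in organ culture were compared with testes of the same age collected fresh. The cultured arrays are those titled E13_testis_cultured and the fresh arrays those titled E13_testis, so the comparison holds 4 of the 14 arrays of the series. Each array received RNA from an independent pool of 20 to 40 gonads, and each group has 2 arrays. For culture, the E13 testes were placed on Millicell CM filters that floated on 0.4 ml of CMRL 1066 with penicillin-streptomycin, 10 µg/ml insulin, 350 µM glutamine, 10 µg/ml transferrin and 0.01% BSA, and the medium was renewed on day 2. The controls were not cultured at all, so explantation, the medium and the 3 days of elapsed time differ together between the groups. Fresh testes at E14 and E16 (2 arrays each) are used below as references, and E16 is the age that embryos of the E13 collection would have reached after 3 days. The 6 ovary arrays of the series enter only the estimate of the spread. Strain and genotype are not given in the labels used here, and whole gonads were pooled, so each value is a mix of all cell types in the organ. In such bulk samples, fewer cells of a type and less RNA per cell cannot be told apart.

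The fetal testis forms when Sry, a transcription factor of the Y chromosome, switches on in supporting cells and turns them into Sertoli cells, which then secrete anti-Müllerian hormone and enclose the germ cells in cords. Fetal Leydig cells arise between the cords and make androgens from cholesterol: STAR carries cholesterol into mitochondria, CYP11A1 with its electron donor ferredoxin cuts the side chain, and HSD3B and CYP17A1 complete the route towards testosterone. The adrenal cortex shares the first steps and adds CYP21A1 and CYP11B1, the enzymes of corticosteroid synthesis. Explanted fetal testes are a common model because cords and steroid production can develop outside the embryo.

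The values are deposited intensities of 15866 probe sets on 1 array design, scaled by the authors to a common trimmed mean. Differences are given as log2 of intensity plus 16, an offset that shrinks changes of dim probe sets, and a fold is 2 to the power of that difference. A probe set was called at an adjusted p under 0.05 (limma over all 14 arrays, Benjamini-Hochberg adjustment over all probe sets). Array medians lay between 59.6 and 69.2, and the actin control was 2.97 times as bright at its 3′ end as at its 5′ end on cultured replicate 2, 1.66 times on cultured replicate 1 and 1.47 and 1.94 times on the fresh arrays. The 2 cultured arrays correlated at r = 0.951 across probe sets and the 2 fresh E13 arrays at r = 0.958. Cultured replicate 1 correlated more closely with the 4 fresh E14 and E16 testis arrays (0.961 to 0.971) than with cultured replicate 2, and replicate 1 of E14 and E16 carries the same beginning and ending of the chip label. It was also closer to both E13 ovary arrays (0.9523 and 0.9525) and E14 ovary replicate 2 (0.9557), but not to the other ovary arrays (0.935 to 0.945). Cultured replicate 2 was closer to E16 testis replicate 2 (0.9551) than to its own replicate. Fresh E13 testis replicate 1 was closer to both E13 ovary arrays (0.9642 and 0.9659) than to its own replicate. Xist, an RNA of XX cells, read 151 and 4.8 on the cultured arrays and 36.2 and 1.9 on the fresh arrays, so replicate 1 of both groups stood apart from replicate 2, as did replicate 1 of the fresh E14 testes at 269 and 1.9. Of the 4 arrays compared only cultured replicate 2 and fresh replicate 2 share the beginning of the chip label.

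More probe sets were higher than lower after culture. Of the 15866 probe sets, 221 (1.39%) passed the test, 168 higher (1.06%) and 53 lower (0.334%) in the cultured testes. These shares are the background for the counts called in each gene list below. The lists were chosen with earlier results of these data known, so their shares called are not independent of these data. Each list takes the brightest probe set of a gene, whereas the background covers all probe sets. The rises were led by Hsd3b1, Cyp17a1 and Mgp, each over 20-fold, and the largest fall was that of Sry. Among the 168 higher probe sets the median difference was 1.36 and 31 rose at least 4-fold; among the 53 lower ones the median was -1.24 and 5 fell at least 4-fold. In all 221 both cultured arrays lay on the same side of both fresh arrays, an arrangement that 39.5% of all probe sets showed. The median difference over all probe sets was -0.01, with 7758 positive and 8108 negative differences. The called probe sets with 1 gene symbol covered 137 genes that were higher and 38 that were lower. Within the pair with the same beginning of the chip label (cultured replicate 2 and fresh replicate 2) Hsd3b1 differed by 5.71, Amh by 3.24 and Sry by -2.47, and with that label as a block 378 probe sets were called. The directions of the 221 within this pair were fixed by the lack of overlap between the groups. Without cultured replicate 2, 49 probe sets passed, without fresh replicate 1, 82, without fresh replicate 2, 80, and without replicate 1 of both groups (the arrays with Xist signal) 71; without 1 fresh E14 testis array 141 passed and without 1 E13 ovary array 129.

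**Figure D1:**
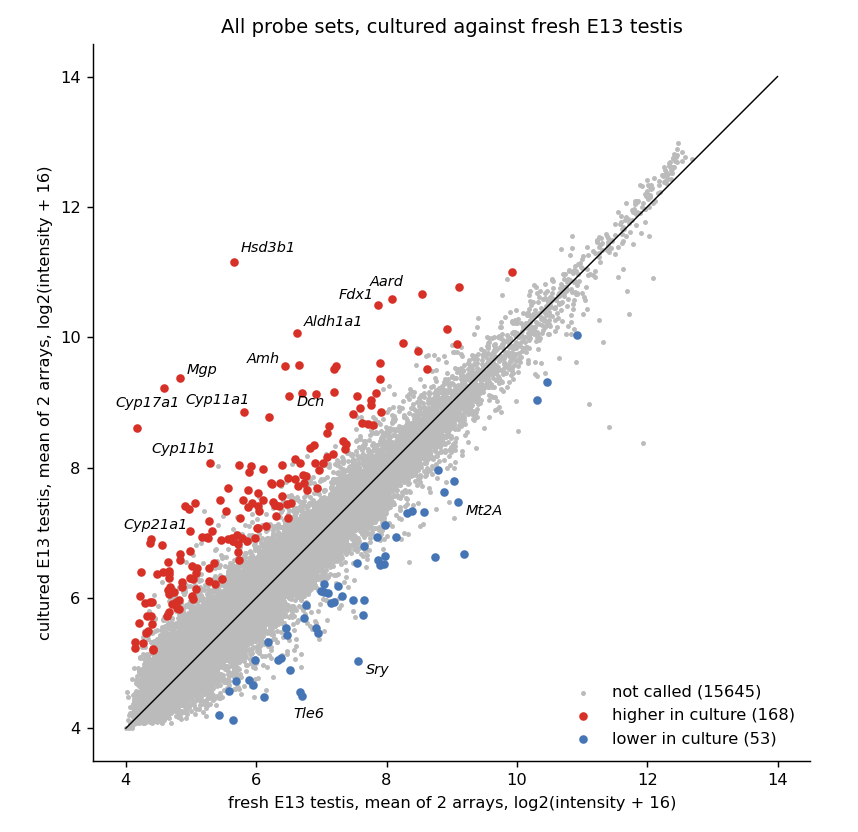
Mean log2(intensity + 16) of the 2 cultured arrays (vertical axis) against the 2 fresh E13 arrays (horizontal axis) for each of 15866 probe sets. Red points are the 168 called higher and blue points the 53 called lower in culture, the line marks equal values, and Hsd3b1 lies farthest above it among the labelled genes.

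The genes of steroid synthesis that rose, with Amh and Inha, were looked up in a table of start sites, and 6 of 11 had a window of 250 bases before the start (RefSeq, build GRCr8). All 6 are shown, since each of these genes rose in culture. Capitals mark AGGTCA or its reverse complement TGACCT, the core motif that nuclear receptors such as SF-1, a regulator of steroid-producing and Sertoli cells, are known to bind.
Cyp11a1, chr8:67318415-67318664, plus strand: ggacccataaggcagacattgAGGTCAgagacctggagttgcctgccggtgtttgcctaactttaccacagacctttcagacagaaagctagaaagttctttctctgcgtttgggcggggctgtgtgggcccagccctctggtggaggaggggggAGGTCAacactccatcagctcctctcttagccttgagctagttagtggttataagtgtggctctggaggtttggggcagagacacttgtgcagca
Fdx1, chr8:61183646-61183895, minus strand: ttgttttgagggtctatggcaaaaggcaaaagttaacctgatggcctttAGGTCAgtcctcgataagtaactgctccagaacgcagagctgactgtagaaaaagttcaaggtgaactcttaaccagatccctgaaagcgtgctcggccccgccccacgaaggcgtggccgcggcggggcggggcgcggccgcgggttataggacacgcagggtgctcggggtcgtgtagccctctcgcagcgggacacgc
Cyp21a1, chr20:4028141-4028390, plus strand: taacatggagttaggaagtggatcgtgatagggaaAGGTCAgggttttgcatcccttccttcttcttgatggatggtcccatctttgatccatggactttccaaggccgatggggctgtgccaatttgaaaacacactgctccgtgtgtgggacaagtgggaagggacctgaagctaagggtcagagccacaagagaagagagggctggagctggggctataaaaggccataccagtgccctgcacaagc
Hsd3b1, chr2:188864695-188864944, minus strand: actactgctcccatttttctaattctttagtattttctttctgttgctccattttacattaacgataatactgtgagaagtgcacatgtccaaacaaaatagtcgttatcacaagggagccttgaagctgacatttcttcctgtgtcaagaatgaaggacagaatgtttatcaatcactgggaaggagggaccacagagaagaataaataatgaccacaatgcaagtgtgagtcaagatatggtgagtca
Amh, chr7:9559868-9560117, minus strand: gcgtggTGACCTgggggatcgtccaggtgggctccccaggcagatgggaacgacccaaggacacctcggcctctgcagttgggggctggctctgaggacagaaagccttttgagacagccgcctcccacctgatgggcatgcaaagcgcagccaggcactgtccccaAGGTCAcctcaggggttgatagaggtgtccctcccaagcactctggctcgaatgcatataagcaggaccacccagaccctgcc
Inha, chr9:84442859-84443108, plus strand: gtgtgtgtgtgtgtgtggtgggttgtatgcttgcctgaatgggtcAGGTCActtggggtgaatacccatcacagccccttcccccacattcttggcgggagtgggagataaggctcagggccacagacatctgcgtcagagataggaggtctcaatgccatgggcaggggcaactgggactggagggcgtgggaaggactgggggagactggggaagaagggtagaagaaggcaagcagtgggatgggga
Of the 6 windows, 5 held AGGTCA on either strand, against 14.1% of 33469 such windows of all genes. The longer form AAGGTCA, which overlaps it, stood in 2 windows, those of Cyp21a1 and Amh, against 4.0% of all. The Hsd3b1 window held neither, and the Inha window held AGGTCA once. Amh and Inha were picked from the 10 called genes of the Sertoli list, and the others were not looked up. The shares for the 6 windows therefore do not measure enrichment among the genes that rose. These matches describe letters and were not tested for binding.

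Hsd3b1 and Cyp17a1, the 2 largest rises among all called probe sets, belong to steroid synthesis. Of 16 measured genes of the steroidogenesis and Leydig cell list, 7 rose, none fell and 9 were not called. The share called was 43.8%, against 1.39% of all probe sets. The list median was 1.25 against -0.01 over all probe sets. Cyp11a1, the side-chain cleavage enzyme that starts every steroid route, read 488 and 408 in culture and 39.5 and 41.1 fresh. Both cultured arrays lay far above both fresh arrays, and the difference was 3.04 (SE 0.22, adjusted p = 0.000207). The adrenal cortex also makes Cyp11a1, Fdx1, Star, Scarb1 and Hsd3b1. On the same arrays the cortical enzymes Cyp11b1 and Cyp21a1 rose by 2.77 and 2.39. The part of adrenal tissue in the rises of these shared genes was not tested. Fdx1, the ferredoxin that feeds electrons to CYP11A1 and whose promoter window is shown above, read 1394 and 1456 in culture against 216 and 217 fresh, a rise of 2.63 (adjusted p = 0.00045). A second Fdx1 probe set rose by 2.16. Star, the cholesterol carrier, read 192 and 321 against 45.0 and 30.3 and rose by 2.31 (adjusted p = 0.00952), and its second probe set rose by 1.81. Scarb1, the HDL receptor that brings cholesterol into steroid cells, rose by 1.70 (2.40 on its second probe set) and Gramd1b, a sterol transfer protein of the endoplasmic reticulum, by 0.98 (its second probe set, 0.76, was not called). Without any 1 of the 4 arrays compared neither of the latter was called on the probe set given first, with adjusted p values of 0.0624 to 0.262 for Scarb1 and 0.0607 to 0.228 for Gramd1b.

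Further along the pathway lay the largest rises. Hsd3b1, which converts pregnenolone to progesterone, read 2032 and 2543 in culture and 36.1 and 33.0 fresh. It had the largest difference of any called probe set, 5.50 (SE 0.42, adjusted p = 0.000211), or 45.3-fold. Cyp17a1, the enzyme that commits steroids to androgens, read 438 and 773 in culture and 15.5 and 2.3 fresh, a rise of 4.64 (SE 0.49, adjusted p = 0.00106). Fresh E14 testes were still low for both genes, with Hsd3b1 at 19.2 and 95.6 and Cyp17a1 at 4.3 and 3.9, so the cultured arrays stood above the fresh E14 arrays as well. Insl3, the Leydig cell hormone that guides testis descent, read 175 and 336 against 37.8 and 18.1, a difference of 2.60 that narrowly missed the threshold (adjusted p = 0.0527). The probe sequences were not used here, so a contribution of near-identical copies of Hsd3b1 to its signal was not tested. A contribution of adrenal cortex to the Hsd3b1 signal was not tested either. When cultured replicate 1, cultured replicate 2, fresh replicate 1 or fresh replicate 2 was left out, 5, 4, 5 and 4 genes of the list were called, and Cyp11a1, Fdx1, Hsd3b1 and Cyp17a1 were called in each of these fits; Star was not called without cultured replicate 2 (adjusted p = 0.109) or fresh replicate 2 (adjusted p = 0.0807).

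Against fresh E16 testes, the stage of equal elapsed time, none of the 16 genes of the list was called. With 2 arrays a group, the lack of a call does not show equal levels. Cyp11a1 read 615 and 1051 at E16, above both cultured arrays, a difference for culture of -0.83 (adjusted p = 0.382). Hsd3b1 read 1432 and 2202 at E16, a difference for culture of 0.35 (adjusted p = 0.979). Cyp17a1 read 1232 and 2566 at E16, above both cultured arrays, and the difference was -1.58 (adjusted p = 0.512). Insl3 read 540 and 1659 at E16, also above both cultured arrays, with a difference of -1.90 (adjusted p = 0.5). Fdx1 read 766 and 1240 at E16, below both cultured arrays (0.54, adjusted p = 0.72). The median over the 16 genes was 0.06 for cultured minus E16. From fresh E13 to fresh E16, a comparison that uses the same fresh E13 arrays, 150 probe sets (0.945%) were called, 112 higher (0.706%) and 38 lower (0.24%) at E16. In it Hsd3b1 rose by 5.15, Cyp17a1 by 6.22, Cyp11a1 by 3.87 and Insl3 by 4.49.

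**Figure D2:**
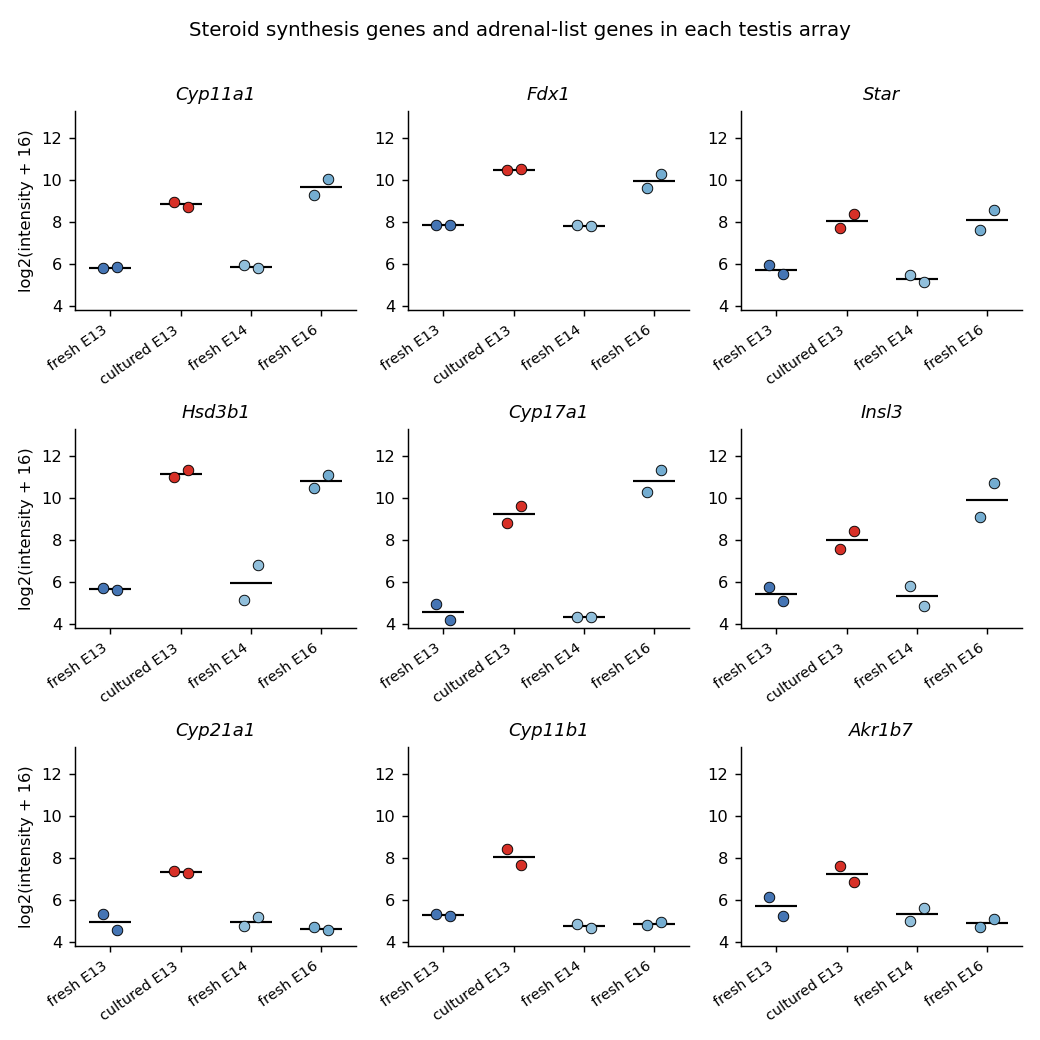
Each point is 1 array and each bar the mean of the 2 arrays, on log2(intensity + 16), for fresh E13, cultured E13, fresh E14 and fresh E16 testis. In the upper 6 panels the cultured arrays lie above fresh E13 and E14, with Cyp11a1, Cyp17a1 and Insl3 below both E16 arrays. In the lower 3 panels (Cyp21a1, Cyp11b1, Akr1b7) the 2 cultured arrays lie above all 6 fresh testis arrays.

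Cyp11b1 and Cyp21a1, both of corticosteroid synthesis, rose in culture and read low in the fresh testis at every age measured. Of 7 measured genes of the adrenal list 2 rose (28.6%, against 1.06% of all probe sets called higher) and none fell. The list median was 1.12 (0.64 without cultured replicate 1 and 1.87 without cultured replicate 2). Cyp11b1, the enzyme that finishes corticosterone, read 333 and 190 in culture, 24.8 and 21.8 in fresh E13 testes, 13.5 and 9.8 at E14 and 11.9 and 15.3 at E16. The difference was 2.77 from fresh E13 (SE 0.27, adjusted p = 0.0008) and 3.18 from fresh E16 (adjusted p = 0.000851). Cyp21a1, the 21-hydroxylase, read 155 and 142 in culture, 24.8 and 7.9 at E13 and 10.1 and 7.6 at E16. It rose by 2.39 over fresh E13 (adjusted p = 0.00231) and lay 2.73 above E16 (adjusted p = 0.00416). Neither gene's cultured arrays overlapped any fresh testis array. A probe set annotated to several genes, and so not named, read 443 and 318 in culture and between 0.6 and 2.8 on the fresh testis arrays, a rise of 4.45 with the smallest adjusted p of the comparison (1.77e-06).

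Akr1b7, an aldo-keto reductase abundant in the adrenal cortex, read 179 and 102 in culture and 54.5 and 22.5 fresh (1.54, adjusted p = 0.0601), and it was called against E16 (2.34, adjusted p = 0.0447), in 6 of 25 alternatives. Genes of the adrenal medulla were not called. For Th and Dbh both cultured arrays lay above both fresh arrays, an arrangement seen in 19.8% of all probe sets. For Pnmt the groups overlapped. Th, which starts catecholamine synthesis, read 111 and 87.6 against 57.3 and 63.8. Dbh, the next enzyme, read 72.0 and 15.2 against 10.3 and 6.0, and Pnmt, which makes adrenaline, read 78.6 and 40.8 against 51.7 and 39.4. The 7 intensities of the list summed to 1105 and 826 in culture and to 517 and 239 in fresh E13 testes. The part of adrenal tissue carried with the gonads in these values was not tested. Cyp11b1 and Cyp21a1 were called whichever of the 14 arrays was left out.

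Of 20 measured genes of cholesterol synthesis 2 were called, both higher (10.0%, against 1.06% of all probe sets). A positive difference was seen in 18, against 7758 of all 15866 probe sets, and the list median was 0.74. On 13 of the 20 (65.0%) both cultured arrays lay above both fresh arrays, an arrangement seen in 19.8% of all probe sets. Msmo1, a sterol demethylase, read 703 and 726 in culture and 391 and 361 fresh, a rise of 0.90 (adjusted p = 0.0242). Insig1, the sterol sensor that restrains the pathway, read 261 and 281 against 108 and 134, a rise of 1.07 (adjusted p = 0.0497). Without any 1 of the 4 arrays compared neither was called, with adjusted p values of 0.0721 to 0.149 for Msmo1 and 0.112 to 0.247 for Insig1. Neither differed from E16 in the test, and the median over the 20 genes was 0.20 for cultured minus E16. Of 13 fatty acid synthesis genes only Acss2, which makes acetyl-CoA from acetate, was called (1.15, adjusted p = 0.0199; 0.0551 to 0.117 without any 1 of the 4 arrays), and the list median was 0.29.

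Some Sertoli cell products rose while Sry fell. Of 29 measured genes of the Sertoli list 10 were called higher, none lower and 19 were not called. Over the list 20 differences were positive and 9 negative, the lowest at -0.91. Both cultured arrays lay above both fresh arrays for 14 (48.3%) and below both for 4 (13.8%). Among all probe sets these arrangements were seen in 19.8% and 19.6%. The share called was 34.5%, against 1.39% of all probe sets, for a list chosen with earlier results of these data known. The called genes are a minority of the list, and its median was only 0.24 (0.40 without fresh replicate 1 and 0.36 without cultured replicate 2). Amh, the hormone that removes the Müllerian duct, read 739 and 737 in culture and 79.5 and 63.9 fresh. The cultured arrays were nearly equal and far above the fresh ones, and the rise was 3.11 (SE 0.30, adjusted p = 0.0008), and its promoter window is among those shown above. Aard read 1273 and 1836 against 290 and 226, a rise of 2.51 (adjusted p = 0.00106). Inha, the inhibin alpha subunit, read 492 and 626 against 149 and 115, a rise of 1.96 (adjusted p = 0.0019). Cldn11, a tight junction protein of the later blood-testis barrier, read 638 and 848 against 150 and 119, a rise of 2.33 (adjusted p = 0.00107), while its dimmer probe set gave 0.77 without a call. Clu, the secreted chaperone clusterin, read 159 and 200 against 54.1 and 44.7, a rise of 1.57 (adjusted p = 0.00168), and its dim second probe set was near 0 (0.10). Tsx rose by 2.59, Tesc by 1.71, Vnn1 by 1.52, Cst8 by 1.41 and Serpina5 by 1.05. Without cultured replicate 2 the list had 5 calls, without fresh replicate 1, 7, without fresh replicate 2, 6, and without cultured replicate 1, 9 higher and 1 lower. Amh, Aard, Inha, Cldn11 and Clu were called in all of these fits, Tsx in all but that without cultured replicate 2 (adjusted p = 0.0631), and Tesc, Vnn1 and Cst8 only in that without cultured replicate 1. Serpina5 was called only in that without fresh replicate 1.

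Sry, the switch of testis determination, read 13.4 and 20.2 in culture and 163 and 185 fresh. It fell by 2.54 (SE 0.24, adjusted p = 0.0008), the largest fall with a call, and was called whichever array was left out. Fresh testes read 45.9 and 37.1 at E14 and 28.2 and 18.5 at E16, and culture and E16 differed by -0.26 (adjusted p = 0.959). Amh read 760 and 477 at E14 and 1093 and 814 at E16, so that culture did not differ from E16 in the test (-0.35, adjusted p = 0.953). Of the Sertoli list only Clu and Serpina5 were called above E16. Cldn11 lay above both E16 arrays without a call (0.82, adjusted p = 0.5). Clu read 62.0 and 78.5 at E16 (1.18 higher in culture, adjusted p = 0.0447). Serpina5, a protease inhibitor, read 25.1 and 22.5 in culture, 4.2 and 2.2 at E13 and 1.2 and 2.9 at E16. It was 1.14 higher in culture than at E16 (adjusted p = 0.0447). Both calls against E16 were rare among the alternatives run, at 6 of 26 for Clu and 7 of 25 for Serpina5.

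**Figure D3:**
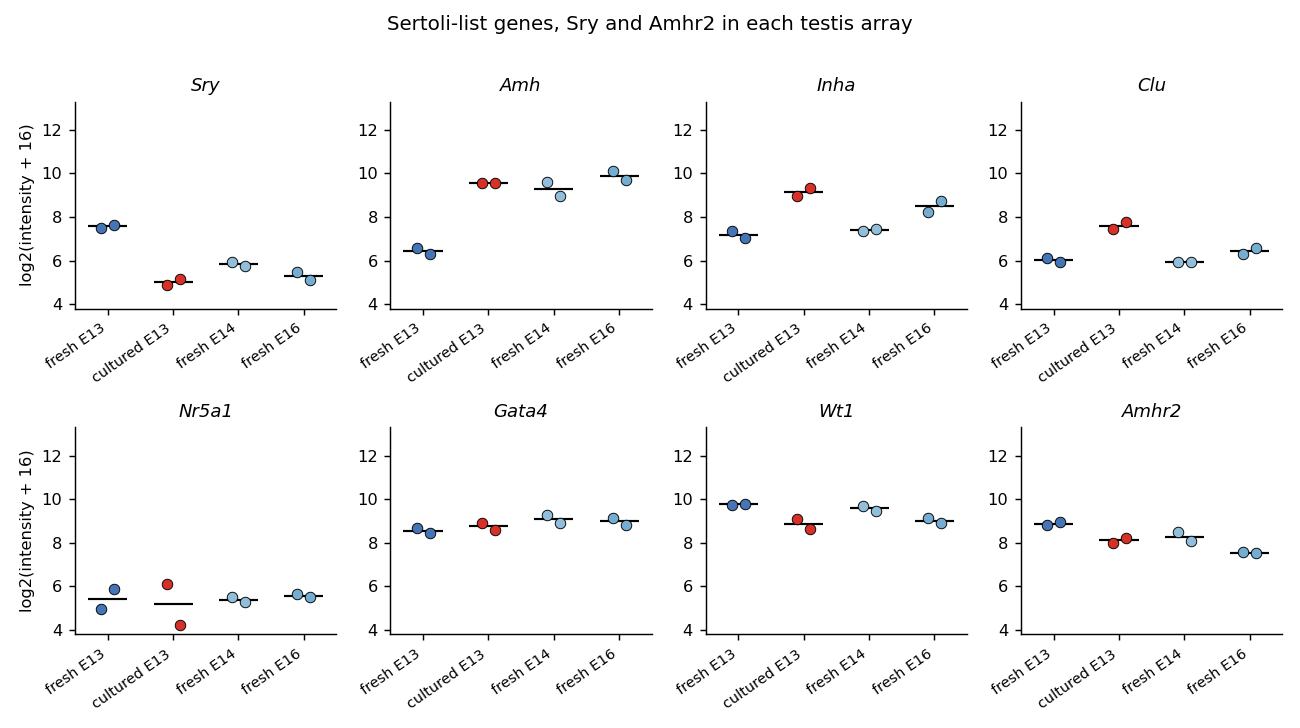
Each point is 1 array and each bar the mean of the 2 arrays, on log2(intensity + 16), in the 4 testis groups. Sry is high only at fresh E13, Amh and Inha are low there, Clu is highest in culture, Nr5a1 and Gata4 overlap between cultured and fresh E13 arrays, and Wt1 and Amhr2 are lower in culture than at fresh E13 without a call.

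Sry was the one call among the regulators of the early gonad. Of 19 measured gonad transcription factors Sry alone was called (5.26%, against 1.39% of all probe sets). A negative difference was seen in 16, against 8108 of all 15866 probe sets, and the list median was -0.63. That median was -0.14 without cultured replicate 2, -0.32 without fresh replicate 1 and -0.96 without cultured replicate 1. Wt1, needed to form the gonad and to keep Sertoli cells, read 527 and 377 in culture and 839 and 863 fresh (-0.91, adjusted p = 0.0549). Emx2, another early gonad factor, read 129 and 44.4 against 297 and 319 (-1.79, adjusted p = 0.0527). Gata4 (0.20) and Nr5a1, which encodes SF-1 (-0.23), overlapped between the groups, and Nr5a1 was dim, at 54.1 and 2.9 in culture and 15.3 and 42.0 fresh. Second probe sets gave -0.76 for Wt1 and -0.43 for Gata4. Without cultured replicate 1 the list had 3 lower calls, Emx2 (adjusted p = 0.0143) and Wt1 (0.0451) with Sry, and without any other of the 4 arrays Sry alone. Of 14 genes of the ovary and pregranulosa list only Bmp4, a growth factor of the gonadal mesenchyme, was called: it read 60.6 and 53.2 against 140 and 133 and fell by 1.07 (adjusted p = 0.0231; 0.0607 to 0.166 without any 1 of the 4 arrays). Amhr2, the receptor for AMH, read 239 and 285 in culture and 437 and 477 fresh (-0.77, adjusted p = 0.0924), opposite in sign to its ligand.

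Of 44 extracellular matrix genes 4 rose (Mgp, Dcn, Spp1 and Col14a1), none fell and 40 were not called. The share called was 9.09%, against 1.39% of all probe sets, and the list median was 0.34. Mgp, an inhibitor of calcification, read 554 and 761 in culture and 20.6 and 6.3 fresh, a rise of 4.54 (SE 0.39, adjusted p = 0.00045). Dcn, the small proteoglycan decorin, read 590 and 480 against 58.1 and 94.5, a rise of 2.60 (adjusted p = 0.00447). Mfap4, a microfibril protein outside that list, read 605 and 917 against 82.2 and 88.4, a rise of 2.91 (adjusted p = 0.000992). Igfbp7, a secreted IGF-binding protein, read 635 and 812 against 141 and 122, a rise of 2.32 (adjusted p = 0.00785), and was not called without cultured replicate 2 (adjusted p = 0.1), fresh replicate 1 (0.0513) or fresh replicate 2 (0.0706). At E16 Mgp read 422 and 742, Dcn 483 and 929 and Mfap4 541 and 1030, and culture did not differ from E16 for any of the 3 in the test. The fibrillar and basement membrane collagens were not called: Col1a1 read 0.90 higher (adjusted p = 0.614), Col3a1 0.14 (adjusted p = 0.841) and Col4a1 0.50 (adjusted p = 0.606). Spp1 rose by 1.24 and Col14a1 by 1.06, and among the fits without 1 of the 4 arrays Spp1 was called only in that without fresh replicate 2 and Col14a1 in none.

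Postn, the matrix protein periostin, followed another course. It read 646 and 1085 in culture, 538 and 559 at fresh E13, 299 and 193 at E14 and 255 and 253 at E16. Its cultured arrays lay above both fresh E13 arrays without a call (0.60, adjusted p = 0.366) and 1.66 above E16 (adjusted p = 0.0447). Ctsk, the collagen-degrading protease cathepsin K, read 76.3 and 79.5 against 9.4 and 8.7 fresh and rose by 1.91 (adjusted p = 0.00106), the only call among 27 matrix remodelling genes. Of 17 smooth muscle and peritubular genes none was called (14 had positive differences, median 0.34, or 0.19 without fresh replicate 1 and 0.20 without cultured replicate 2), and the smallest adjusted p was 0.102. Acta2, the smooth muscle actin of peritubular cells, read 334 and 287 in culture, 215 and 191 at E13 and 470 and 543 at E16, so the cultured arrays lay between the fresh stages (0.57 from E13, adjusted p = 0.437; -0.68 from E16, adjusted p = 0.704).

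Of 31 hypoxia and glycolysis genes 2 fell, 1 rose (9.68% called, against 1.39% of all probe sets) and 28 were not called. Both cultured arrays lay below both fresh arrays for 19 (61.3%), an arrangement seen in 19.6% of all probe sets, and the list median was -0.39. Slc16a3, the lactate exporter MCT4, read 83.8 and 23.4 in culture and 177 and 193 fresh, a fall of 1.68 (adjusted p = 0.0369). Slc2a3, the glucose transporter GLUT3, read 50.9 and 37.1 against 92.2 and 94.3, a fall of 0.87 (adjusted p = 0.0307), with -0.50 and no call from its second probe set. Ldha, the muscle-type lactate dehydrogenase, read 1231 and 1187 against 2167 and 2766 (-1.01, adjusted p = 0.0783), and Eno1, enolase, 1725 and 1610 against 2963 and 3676 (-0.98, adjusted p = 0.0745). Pfkp, the platelet-type phosphofructokinase, was the exception: it read 238 and 271 against 95.6 and 77.6 and rose by 1.40 (adjusted p = 0.0231). Pfkp was not called without any 1 of the 4 arrays (adjusted p 0.0624 to 0.167), and Slc16a3 and Slc2a3 only in the fit without cultured replicate 1 among these (0.00235 and 0.0342, against 0.144 to 0.17 and 0.12 to 0.207 in the other 3). Slc16a3 was also not called when any array outside the 4 was left out.

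From fresh E13 to fresh E16, with the same E13 arrays, Slc16a3 changed by -2.07 and Ldha by -1.54, and the list median was -0.52. For cultured minus E16 the list median was 0.17, and Slc16a3 (0.39), Slc2a3 (-0.09), Ldha (0.53) and Pfkp (0.62) were not called.

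**Figure D4:**
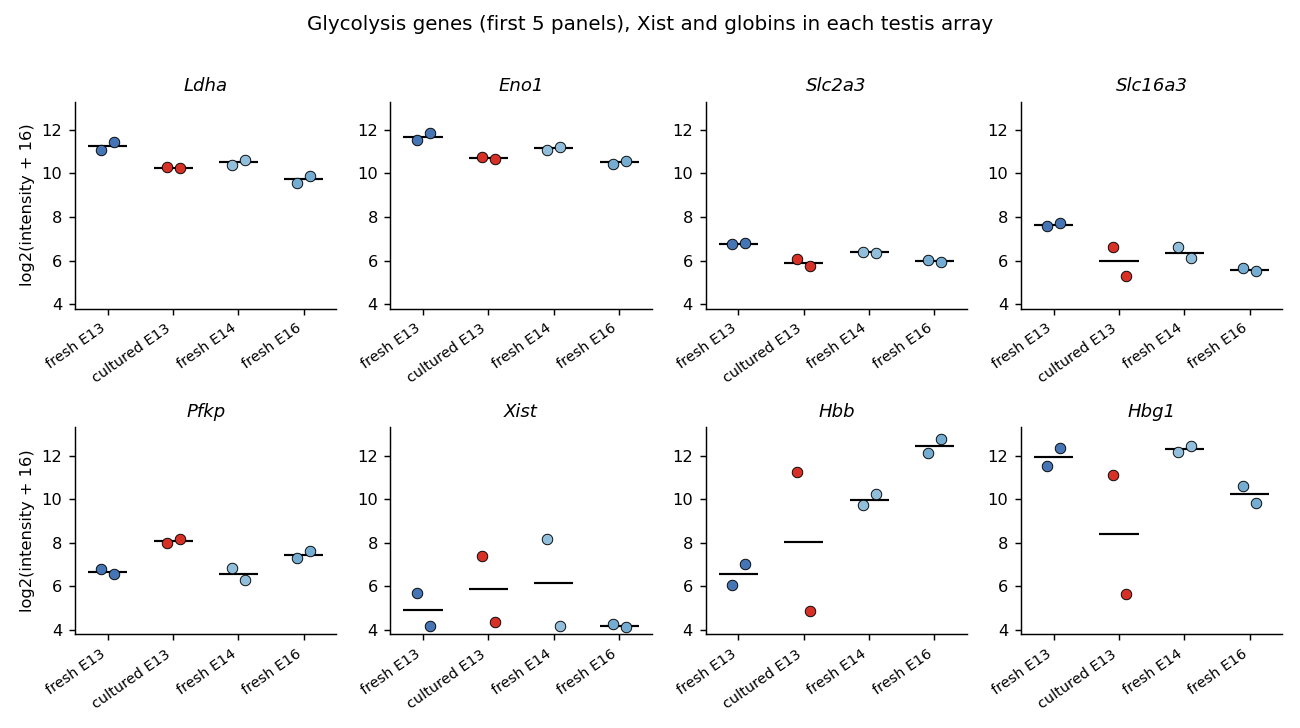
Each point is 1 array and each bar the mean of the 2 arrays, on log2(intensity + 16), in the 4 testis groups. Ldha, Eno1, Slc2a3 and Slc16a3 are lower and Pfkp higher in culture than at fresh E13, while Xist, Hbb and Hbg1 differ widely between the 2 cultured arrays.

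Calls among stress genes ran from 1 of 30 to 5 of 43, shares of 3.33% to 11.6% against 1.39% of all probe sets. Of 30 immediate early genes 1 rose: Atf3, a stress-induced factor, read 21.0 and 21.5 in culture and 5.2 and 5.4 fresh (0.81, adjusted p = 0.0366). Of 26 heat shock and endoplasmic reticulum stress genes only Hspb1, the small heat shock protein HSP27, rose (1.69, adjusted p = 0.0366). Of 21 genes of the amino acid response only Mthfd2, a mitochondrial folate enzyme, rose, at 108 and 121 in culture against 14.2 and 17.0 fresh (2.05, adjusted p = 0.0008). Of 43 oxidative stress and glutathione genes 4 rose and 1 fell, with a median of 0.13 (0.01 without cultured replicate 2 and 0.25 without cultured replicate 1). Gsta1, a glutathione transferase, read 415 and 725 against 92.9 and 84.5 (2.43, adjusted p = 0.0101). Hmox1, heme oxygenase, rose by 1.18, Gstt1, another transferase, by 1.71 and Ephx1, an epoxide hydrolase, by 1.53. Mt2A, a metallothionein that binds zinc and copper, read 207 and 127 in culture and 502 and 566 fresh and fell by 1.62 (adjusted p = 0.00785). Mthfd2 was called whichever array was left out. Without any 1 of the 4 arrays Atf3 and Hspb1 were not called (adjusted p 0.102 to 0.183 and 0.137 to 0.162). Gstt1 was not called in these fits either (0.089 to 0.285). Ephx1 and Gsta1 were called only without cultured replicate 1 of these (0.146 to 0.238 and 0.0629 to 0.11 in the others) and Hmox1 only without fresh replicate 1 (0.0795 to 0.182 in the others), and Mt2A was not called without cultured replicate 2 (0.0801) or fresh replicate 2 (0.0701).

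Antigen presentation and interferon genes gave 4 rises and 1 fall among 26 measured (19.2% called, against 1.39% of all probe sets). The list median was 0.16 (0.33 without cultured replicate 1, 0.09 without cultured replicate 2 or fresh replicate 2). B2m, the light chain of MHC class I, read 1251 and 2056 in culture and 320 and 397 fresh, a rise of 2.12 (adjusted p = 0.00812), and its dimmer probe set gave 1.22 without a call. Psmb9, a subunit of the immunoproteasome, read 41.9 and 48.4 against 4.8 and 5.3, a rise of 1.54 (adjusted p = 0.00516). Ifitm3 rose by 1.66 and Ifi27 by 1.19. Cd74, the invariant chain of MHC class II, went the other way, at 34.8 and 22.0 against 96.8 and 119, a fall of 1.49 (adjusted p = 0.0343). Without cultured replicate 2 none of the 26 was called, without fresh replicate 1 only Psmb9, without fresh replicate 2 B2m and Psmb9, and without cultured replicate 1 B2m, Psmb9 and Ifitm3.

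Markers of other cell types were read on the same arrays. Of 12 red blood cell genes 1 fell, Slc4a1, the anion exchanger of the red cell membrane (-0.95, adjusted p = 0.0295; its second probe set gave -0.13), from 123 and 108 fresh to 61.9 and 43.1 in culture. The summed intensity of the list was 11770 on cultured replicate 1, 1329 on cultured replicate 2, and 9823 and 14079 on the fresh arrays. Hbb, adult beta globin, read 2420 and 13 in culture and 51.3 and 115 fresh, and Hbg1, a gamma globin, read 2188 and 34.6 against 2932 and 5236. Cultured replicate 2 was thus low in globins. Cultured replicate 1 lay above both fresh arrays for Hbb and below both for Hbg1. The part of the globins in the other results was not tested. The list median was -0.64, or -1.42 without cultured replicate 1 and -0.07 without cultured replicate 2. Of 23 macrophage and leukocyte genes 2 rose (Lyz2, the macrophage lysozyme, by 1.14, and Spp1, osteopontin, by 1.24) and Cd74 fell, with a median of 0.40. Their summed intensity was 1693 and 1749 in culture against 1159 and 1223 fresh, so that the cultured arrays lay above the fresh ones. C1qa, a complement subunit made by macrophages, read 74.3 and 40.4 in culture and 11.8 and 12.4 fresh (1.34, adjusted p = 0.0922). Lyz2 was called only without fresh replicate 2 among the fits without 1 of the 4 arrays, and the part of leukocytes in the rise of the antigen presentation genes was not tested.

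Of 18 endothelial genes none was called. Cav1, a protein of caveolae, came nearest, at 159 and 223 in culture against 90.1 and 100 fresh (0.88, adjusted p = 0.0568; 0.0451 without cultured replicate 1). Of 16 neuron genes only Gap43, a growth cone protein, rose (1.47, adjusted p = 0.0477), from 7.7 and 28.4 fresh to 70.4 and 77.9, while its dim second probe set gave -0.32; the call was lost without cultured replicate 1 (0.116), cultured replicate 2 (0.238) or fresh replicate 1 (0.257). The neuron list summed to 1212 and 1014 in culture and 966 and 911 fresh, with a median of 0.47 (0.24 without cultured replicate 1), and whether nerve or ganglion tissue differed between the pools was not tested. Of 18 mesonephros and kidney genes only Spp1 was called. Krt19, a keratin of duct epithelium, read 185 and 78.7 in culture against 325 and 380 fresh (-1.41, adjusted p = 0.0987). Of 27 genes of the germ cell list only 7 were measured, and none of these was called. Ybx2, a germ cell gene outside this list, fell by 1.64 (adjusted p = 0.00813) and is given below. Against E16, 6 of the 7 list genes had a negative difference without a call, against 7428 of all 15866 probe sets. Sycp3, a protein of the meiotic chromosome axis, read 47.2 and 32.5 in culture, 17.8 and 35.9 at E13 and 98.1 and 130 at E16, below both E16 arrays without a call (-1.22, adjusted p = 0.247).

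Several of the largest changes belonged to no list above. Aldh1a1, which makes retinoic acid from retinal, read 763 and 1464 in culture and 89.5 and 77.3 fresh, a rise of 3.44 (adjusted p = 0.0008), called whichever array was left out. Crabp1, which binds retinoic acid in the cytoplasm, read 155 and 135 against 286 and 356 and fell by 1.06 (adjusted p = 0.0256). They were the only calls among 18 retinoic acid genes. Enpep, the aminopeptidase that cleaves angiotensin II, read 93.8 and 105 against 3.3 and 6.3 and rose by 2.47 (adjusted p = 0.000817), while its second probe set gave -0.02, so the 2 probe sets disagree. Fabp3, a fatty acid carrier, rose by 1.71 (adjusted p = 0.044), the only call among 23 insulin and lipid genes. Jag1, a Notch ligand, read 129 and 87.3 against 28.2 and 13.1 and rose by 1.77 (adjusted p = 0.00628). Sfrp4, a secreted Wnt antagonist, read 125.3 and 459.5 against 43.5 and 46.0 and rose by 2.09 (adjusted p = 0.0308), with its second probe set at 0.07. Hes6, a factor of the Notch pathway's hairy family, rose by 0.93 (adjusted p = 0.0442). Wif1, another Wnt antagonist, fell by 0.92, from 71.8 and 71.9 to 30.7 and 30.1 (adjusted p = 0.0376). Of 42 genes of TGF-beta, BMP and activin signalling 3 rose (Amh, Inha and Tgfb3) and 2 fell, Bmp4 and the decoy receptor Bambi (-1.24). These calls were 11.9% of that list, against 1.39% of all probe sets. Among the fits without 1 of the 4 arrays, Crabp1, Wif1 and Bambi were called in none, Hes6 and Fabp3 only without cultured replicate 1, Sfrp4 not without fresh replicate 1 (0.146) or 2 (0.131), Jag1 not without fresh replicate 2 (0.0593), and Tgfb3 only without cultured replicate 1.

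Among the falls, Tle6, a Groucho-related corepressor, read 9.2 and 5.9 in culture and 77.7 and 95.4 fresh, a fall of 2.12 (adjusted p = 0.0179). Hoxa5, a homeobox factor of axial position, read 56.6 and 37.9 against 160 and 167 and fell by 1.52 (adjusted p = 0.0298). Apoc1, an apolipoprotein, fell by 1.37 (adjusted p = 0.00516) and Errfi1, a feedback inhibitor of EGF receptor signalling, by 1.29 (adjusted p = 0.0408). Ybx2, an RNA-binding protein of germ cells, read 4.8 and 8.1 in culture and 64 and 44.8 fresh, a fall of 1.64 (adjusted p = 0.00813). Gucy1b1, a subunit of the nitric oxide receptor, fell on both of its probe sets, by 1.34 on the brighter and 1.44 on the dimmer. For Tpm1, which encodes tropomyosin 1 with many splice forms, 2 of 6 probe sets fell (-1.39 and -1.22), while the brightest did not change in the test (-0.13, adjusted p = 0.863). Without any 1 of the 4 arrays Tle6, Hoxa5 and Errfi1 were not called (0.0574 to 0.133, 0.0506 to 0.207 and 0.096 to 0.232), while Apoc1 was lost only without cultured replicate 2 (0.065) and Ybx2 without cultured replicate 2 (0.0577) or fresh replicate 1 (0.0714). Gucy1b1 on the dimmer probe set was called only without cultured replicate 1 of these.

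Vstm4, an immunoglobulin-domain membrane protein, read 167 and 141 in culture and 26.7 and 5.1 fresh, a rise of 2.50 (adjusted p = 0.0343). Pea15, a phosphoprotein that binds ERK, rose by 0.97 on its brighter probe set and by 2.53 on its dimmer one. Baiap2l1, which binds membranes and actin, read 13.8 and 13.4 in culture and 104 and 54.3 fresh, a fall of 1.63 (adjusted p = 0.0149). Dcc, the netrin receptor, fell by 1.28 (adjusted p = 0.0215) and Ift122, of intraflagellar transport, by 1.29 (adjusted p = 0.034). Ly6l fell on both dimmer probe sets, by 1.52 and 1.03, while the brightest gave -0.70 without a call (adjusted p = 0.0817). Without any 1 of the 4 arrays Vstm4, Ift122 and the dimmer Pea15 probe set were not called, Baiap2l1 was called only without fresh replicate 2 and Dcc only without cultured replicate 1.

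The lists of cell cycle, respiratory chain, ribosomal protein, endothelial, germ cell, smooth muscle and hedgehog genes gave no call. The 45 cell cycle genes had a median of -0.18 (-0.11 without cultured replicate 2, -0.32 without fresh replicate 1 and -0.30 without cultured replicate 1), with both cultured arrays below both fresh arrays for 18 (40.0%, against 19.6% of all probe sets). Birc5, the mitotic protein survivin, read 134 and 155 against 234 and 198 (-0.53, adjusted p = 0.194). The medians of 53 respiratory chain genes, 39 ribosomal protein genes and 7 hedgehog genes were 0.03, 0.20 and 0.19, and single arrays turned them: without fresh replicate 1 the first was -0.19 and the second -0.07, without fresh replicate 2 they were 0.21 and 0.47, and without cultured replicate 1 the third was -0.01 and without cultured replicate 2 the first was -0.06 and the second 0.10. Of 24 p53 and apoptosis genes Ccng1, the p53 target cyclin G1, rose, at 343 and 421 against 146 and 102 (1.52, adjusted p = 0.0049; 0.0631 without cultured replicate 2), and Perp, a membrane protein induced by p53, fell (-0.93, adjusted p = 0.0461; 0.0662 to 0.279 without any 1 of the 4 arrays; -0.55 on its second probe set).

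The cultured testes were last compared with fresh E16 testes over all probe sets, the direct test of culture against the same elapsed time in the embryo. Of 15866 probe sets 15 (0.0945%) were called, 11 higher (0.0693%) and 4 lower (0.0252%) in culture, and 1059 had an unadjusted p under 0.05. The count was 32 without cultured replicate 1, 3 without cultured replicate 2, 6 and 3 without E16 replicate 1 and 2, and 5 to 9 without any 1 of the arrays outside this comparison. Each cultured array shares the ending of its chip label with 1 of the E16 arrays. Within these 2 pairs Cyp11b1 differed by 3.65 and 2.72 and Cpa1 by -2.85 and -3.82; the directions of the 15 were fixed by the lack of overlap between the groups. With the ending as a random block 72 probe sets were called, and 240 in cultured against fresh E13 testis. The cultured and fresh E13 arrays are not matched on the ending as the cultured and E16 arrays are. The part of the chip label in the gap between 221 calls against E13 and 15 against E16 was not tested. Those higher in culture included the adrenal-list genes Cyp11b1, Cyp21a1 and Akr1b7, Clu, Serpina5 and Postn, given above, and the unnamed probe set with the smallest adjusted p (4.47, adjusted p = 1.68e-06), which was called in 26 of 26 alternatives. Cxcr4, a chemokine receptor, read 146 and 131 on its called probe set, a dimmer one of 3, in culture, 132 and 123 at fresh E13 and 50.2 and 46.9 at E16 (1.26 above E16, adjusted p = 0.0199), and the other 2 probe sets gave 1.27 and 1.09 without a call, so that the cultured arrays lay near fresh E13 (0.10, adjusted p = 0.872).

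Lower in culture than at E16 were Cpa1, Nppc, Ybx2 and Npr3. Cpa1, carboxypeptidase A1, read 199 and 210 in culture, 90.3 and 56.6 at fresh E13 and 1532 and 3182 at E16, a difference of -3.34 from E16 (adjusted p = 0.00943). Nppc, the precursor of C-type natriuretic peptide, read 33.8 and 21.6 in culture, 55.1 and 35.4 at E13 and 181 and 188 at E16 (-2.21, adjusted p = 0.00125). Npr3, the receptor that clears natriuretic peptides, read 5.7 and 5.3 in culture and 27.2 and 41.3 at E16 (-1.21, adjusted p = 0.0447). Ybx2 read 50.5 and 60.2 at E16 (-1.67, adjusted p = 0.0447). Over the alternatives run for this comparison, Nppc was called in 25 of 26, Cyp11b1 in 24 of 25, Cyp21a1 in 21 of 25 and Cpa1 in 21 of 26, 17 of 26 for Cxcr4 and 11 of 26 for Ybx2, against 6 of 26 for Postn, 4 of 25 for Npr3 and 2 of 25 for Stmn2, a neuronal tubulin regulator that was 1.26 higher in culture on its called, dimmer probe set.

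**Figure D5:**
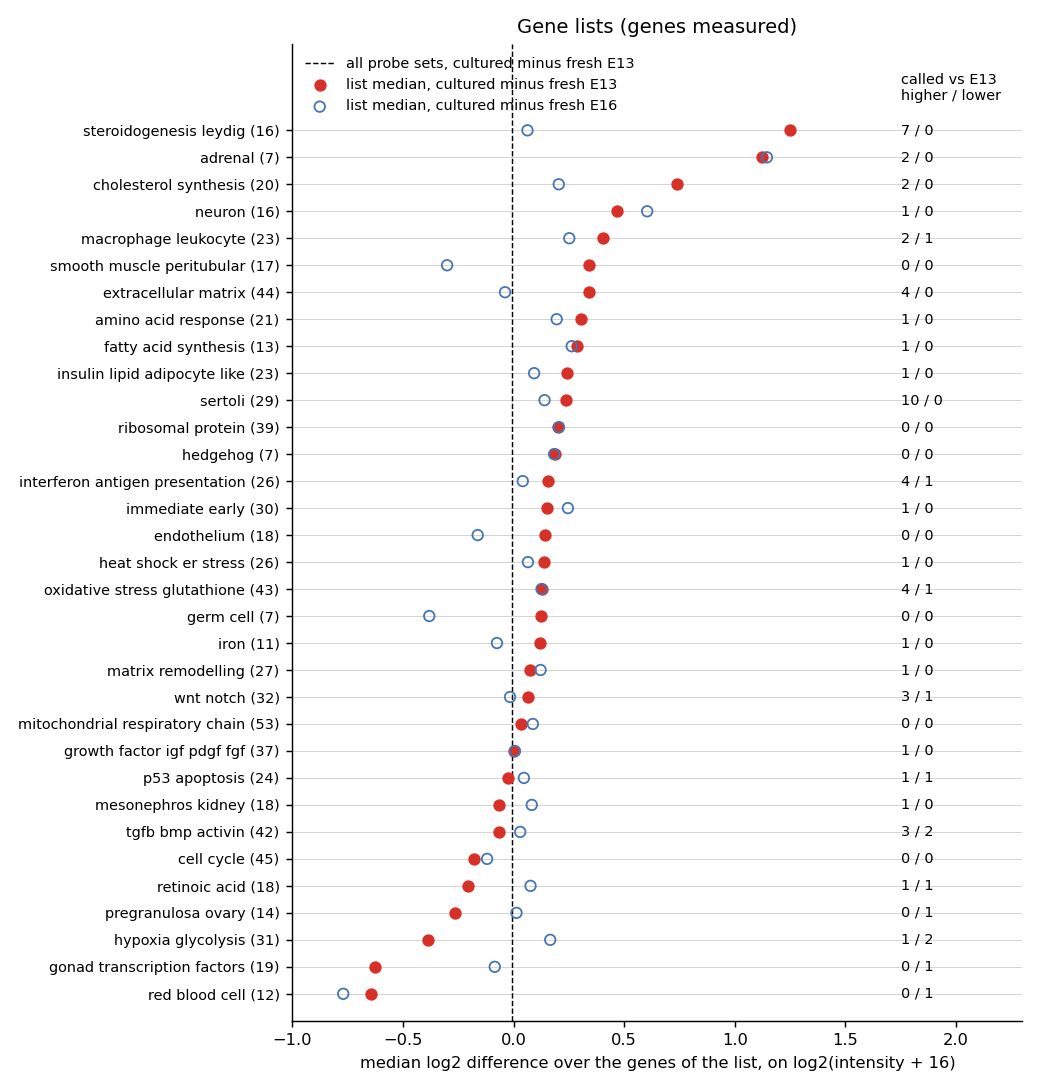
Median log2 difference over the measured genes of each list, on log2(intensity + 16), for cultured minus fresh E13 (filled) and cultured minus fresh E16 (open), with the median over all probe sets as a dashed line and the counts called against E13 at the right. Steroidogenesis (1.25) and adrenal (1.12) lie highest against E13, and against E16 steroidogenesis is at 0.06 while adrenal is at 1.15; the 2 comparisons share the cultured arrays.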

How the data were processed

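The deposited values are array intensities on a linear scale, 1 column per array, which the authors had scaled: the trimmed mean without the top and bottom 2% of probe sets was the same on each of the 14 arrays. The summarising software is not given in the sources used here, and detection calls were not used, so dim values cannot be called absent. The 57 control probe sets were left out, and 15866 were tested; 12783 carry 1 gene symbol, 312 several and 2771 none. limma 3.58.1 in R 4.3.3 was fitted to log2(intensity + 16) with 7 groups, 14 arrays and 7 residual degrees of freedom, after it was tested on simulated data; with 2 arrays a group, their number limits the precision. The adjusted p values are Benjamini-Hochberg over all probe sets.

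The genes to name were the 15 largest rises and falls called against fresh E13, the 10 largest against fresh E16, up to 4 called members per list and direction (or the 2 with the smallest p where none was called) and Amh, Sry, Xist, Cyp11a1, Cyp17a1, Hsd3b1, Insl3, Star, Acta2, Hbb and Gapdh as checks. Gapdh has no probe set with that symbol alone. Scarb1, Gramd1b, Tesc, Vnn1, Cst8, Ldha, Eno1, Amhr2, Wt1, Emx2, Nr5a1, Gata4, Hbg1, Th, Dbh, Pnmt, C1qa, Col1a1, Col3a1, Col4a1, Krt19 and 1 unnamed probe set fall outside this rule and were chosen after their values were seen. Where a gene has several probe sets, the brightest stands for it, and a dimmer one is named as such or as the called one. Members of lists without a call are not all printed. The members and lists were chosen with earlier results of these data known. Alternatives changed the offset, the scaling, the filter, the variance model, the arrays and the blocks. Promoter windows came from RefSeq (GRCr8).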

Additional observations from a re-analysis of the deposited data

How the results depend on the processing

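Each comparison was repeated under 26 alternatives. In cultured against fresh E13 testis (221 calls), the count was 106 with an offset of 1, 29 with only the groups compared, 106 with only the testis arrays, 378 with the chip label prefix as a block and 71 without replicate 1 of both groups (Xist signal), and 49 to 211 without 1 array in turn. In cultured against fresh E16 testis (15 calls), it was 7 with an offset of 1, 9 with an offset of 64, 9 with arrays centred on the median, 10 with only probe sets of mean intensity 50 or more, 10 with an intensity trend, 1 with only the groups compared, 7 with only the testis arrays, 72 with the label suffix as a random block and 3 to 32 without 1 array in turn. In fresh E16 against fresh E13 testis (150 calls), it was 94 with an offset of 1, 29 with only the groups compared, 82 with only the testis arrays, 252 with the prefix block, 72 without replicate 1 of cultured and fresh E13 and 22 to 155 without 1 array in turn. Fewer arrays leave fewer degrees of freedom; the cause of the other changes was not tested.

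Of the alternative values for the named genes in culture against fresh E13, 2364 kept their side of the threshold, 553 lost a call and 49 gained one. With a call in either fit, 0 reversed in sign. A change of sign without a call in either fit was counted as keeping its side. With the replicate number as a block, 298 probe sets were called against fresh E13, 14 for culture against E16 and 215 for fresh E16 against E13. With 2 arrays a group the numbers cannot be shown to pair the samples: deviations of same-numbered arrays correlated at 0.17 between cultured and fresh E13 testes and from 0.12 to 0.28 over the pairs of testis groups, but from -0.05 to 0.53 over all pairs of groups. Dim probe sets limit the folds, since fresh E13 values such as 2.3 for Cyp17a1 lie below the offset.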
